A study of Mus musculus with 4 samples.

Results

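This report is about 10 cytokine genes of helper T cells, chosen by name: Ifng, Il4, Il13, Il17a, Il17f, Il10, Il2, Il21, Il3 and Csf2. All 10 were matched by Ensembl ID to 1 row each of the 47729 gene rows in the count table. The study cultured CD4 T cells from the spleen of C57BL/6 mice into induced regulatory T (iTreg) cells and asked what added iron does to their transcripts. The FeSO4 group received ferrous sulfate at 50 µM for 4 days and the Mock group received the PBS vehicle for 4 days. Each group has 2 libraries, which the methods describe as mRNA libraries prepared from extracted RNA. Every culture, Mock included, held recombinant human TGF-β at 5 ng/mL, recombinant human IL-2 at 100 U/mL and antibodies against IL-4 and IFN-γ at 5 µg/mL each. Per the methods, the T cells were also stimulated with antibodies against CD3 and CD28. The labels give no age of the mice, no number of mice per culture and no sort of Foxp3+ cells after culture, and the methods speak of pairs of samples from independent experiments without saying which libraries form a pair, so each p-value here measures the spread between these libraries.

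Helper T cells act on other cells through secreted cytokines, and each helper lineage is known for its own set. Type 1 helper cells secrete IFN-γ, type 2 helper cells IL-4 and IL-13, and type 17 helper cells IL-17A and IL-17F. IL-10 restrains inflammation and is made by many lineages, effector regulatory T cells among them, whereas IL-2, IL-3, IL-21 and GM-CSF (the product of Csf2) are growth and differentiation factors that activated T cells release. Regulatory T cells are defined by the transcription factor Foxp3, and TGF-β together with IL-2 drives its induction while blocking antibodies keep IL-4 and IFN-γ from turning the cells to other fates. In bulk RNA from a culture, fewer cells of a kind that transcribe a gene and less RNA of that gene per cell cannot be told apart.

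The libraries held 35183187 to 40859178 reads in gene rows. Levels are given as CPM, counts scaled to a common sequencing depth with TMM factors. A count of 0 is compatible with up to 3 counts, which corresponded to 0.0717 to 0.0875 CPM. The labelled cell type had its defining markers: the 6 CD4 T cell markers summed to 2384 to 2773 CPM, and the 5 Treg cell markers to 2200 to 2680 CPM. Most of the Treg sum came from Il2ra, at 1395 to 1585 CPM. Foxp3 itself was at 586 and 693 CPM in the Mock libraries and 375 and 471 CPM in the FeSO4 libraries. Mock replicate 1 stood apart in a small myeloid signal, with 164 counts of Lyz2 against 8, 0 and 0 in Mock replicate 2 and the FeSO4 libraries.

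The 10 genes lie at 6 places in the genome, and 4 pairs are neighbours among them. Positions are those of RefSeq on GRCm38.p6. Il4 (chr11:53612460-53618665) and Il13 (chr11:53631323-53634702) are 12.7 kb apart. Csf2 (chr11:54247270-54249899) and Il3 (chr11:54265085-54267279) lie 15.2 kb apart further along chromosome 11. Il17a (chr1:20730905-20734496) and Il17f (chr1:20777146-20785274) are separated by 42.6 kb, and Il2 (chr3:37120713-37125954) and Il21 (chr3:37222759-37232636) by 96.8 kb. Ifng (chr10:118441046-118445894) and Il10 (chr1:131019845-131024970) have no other of the 10 genes close by.

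Promoter sequence is shown for Il4 and Il13, the closest of the neighbouring pairs, which both rose, and for Il17a and Il17f, the neighbours of which 1 was called and 1 was not. Each line gives the 250 bases before a transcription start, 5′ to 3′ along the gene's strand, from RefSeq on GRCm38.p6. Capitals mark GGAAA (the core that NFAT factors bind), TGANTCA (AP-1), TGCTGA (a Maf half-site) and ACGTG (the core that HIF factors bind), each searched on both strands, and no capital stretch below belongs to more than 1 motif. The Il4 promoter is chr11:53618666-53618915 (minus strand), the Il13 promoter chr11:53634703-53634952 (minus strand), the Il17a promoter chr1:20730655-20730904 (plus strand) and the Il17f promoter chr1:20784271-20784520 (minus strand), where the start used lies inside the outer bounds of the gene.
Il4: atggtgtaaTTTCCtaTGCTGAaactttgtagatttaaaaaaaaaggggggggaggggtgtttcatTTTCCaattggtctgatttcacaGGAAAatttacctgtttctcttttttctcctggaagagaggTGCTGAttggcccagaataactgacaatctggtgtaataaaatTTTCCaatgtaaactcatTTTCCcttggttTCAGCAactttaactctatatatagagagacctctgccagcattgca
Il13: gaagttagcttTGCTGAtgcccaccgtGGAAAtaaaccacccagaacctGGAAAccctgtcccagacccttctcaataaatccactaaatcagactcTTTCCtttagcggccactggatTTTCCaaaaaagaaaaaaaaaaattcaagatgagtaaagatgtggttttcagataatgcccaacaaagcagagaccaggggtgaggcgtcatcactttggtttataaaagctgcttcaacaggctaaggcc
Il17a: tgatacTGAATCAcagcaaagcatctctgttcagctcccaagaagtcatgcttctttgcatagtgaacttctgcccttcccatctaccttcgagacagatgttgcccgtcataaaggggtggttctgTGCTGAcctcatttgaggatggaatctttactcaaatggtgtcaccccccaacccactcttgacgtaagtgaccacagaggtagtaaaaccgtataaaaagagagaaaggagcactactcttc
Il17f: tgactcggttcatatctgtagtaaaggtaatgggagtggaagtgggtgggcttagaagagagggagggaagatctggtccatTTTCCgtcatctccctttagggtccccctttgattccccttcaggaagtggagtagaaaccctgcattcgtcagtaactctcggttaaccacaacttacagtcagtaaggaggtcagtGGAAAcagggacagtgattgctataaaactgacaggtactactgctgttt

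The Il4 window held 5 NFAT cores and 3 Maf half-sites, and the Il13 window 4 NFAT cores and 1 Maf half-site. Of the 32851 promoters in the table, 55.6% held an NFAT core, 0.39% held 5 or more, and 0.146% held 3 or more Maf half-sites. The Il17a window held 1 AP-1 site, a motif found in 6.75% of all promoters, and 1 Maf half-site, found in 16.1%. In the Il17f window there were 2 NFAT cores and no match to the other motifs. Among the other members with an entry, Ifng and Il3 held 1 NFAT core each, Csf2 and Il2 held 2 each, and Il21 held 3. Il2 and Il21, which were not tested, also held 1 Maf half-site each. The only HIF core among the members was in the Il21 window, against 16.6% of all promoters. Il4 has a further entry, with a start inside the gene, that held no match. Il10 was not matched in the promoter table. These matches describe letters in a fixed window and say nothing of binding.

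Of the 10 cytokine genes, 7 were called higher in FeSO4 than in Mock, none was called lower, 1 missed the threshold and 2 were not tested. The 7 were Csf2, Il4, Il17a, Il13, Ifng, Il10 and Il3, with fitted fold changes from 5.37 for Csf2 to 1.9 for Il3. Il17f missed the threshold, and Il2 and Il21 did not pass the filter on low counts. Csf2 and Il17a passed that filter only through the FeSO4 libraries, where they are higher, so their places among the tested genes are not independent of their difference. Among the 6 members with at least 10 counts in every library, which leaves both out, 5 were higher (Ifng, Il4, Il13, Il10 and Il3) and none lower, against 12% and 10.3% of the 12492 genes that pass this stricter filter. In all, the 10 genes summed to 24.5 CPM in each Mock library, against 90.2 CPM in FeSO4 replicate 1 and 62.5 CPM in FeSO4 replicate 2. The test was edgeR's quasi-likelihood F test over all 13732 genes that passed the filter on low counts, with Benjamini-Hochberg adjustment and a threshold of 0.05. The count of higher members was 4 without FeSO4 replicate 1 and 5 without any 1 of the other libraries.

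**Figure D1:**
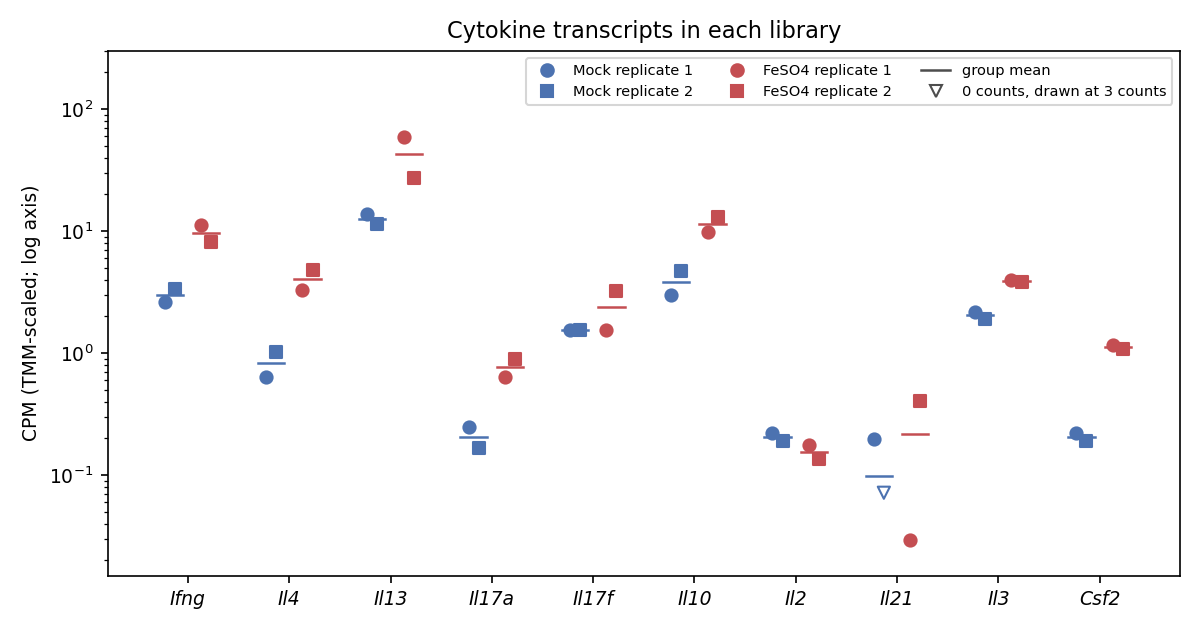
CPM of each cytokine gene in the 4 libraries (log axis; circles are replicate 1, squares replicate 2, blue is Mock, red is FeSO4, and horizontal lines are group means). For Ifng, Il4, Il13, Il17a, Il10, Il3 and Csf2 both FeSO4 libraries lie above both Mock libraries, Il17f is level in 3 libraries and higher in FeSO4 replicate 2, and the open triangle marks the 0 counts of Il21 in Mock replicate 2.

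Across all tested genes, 10.9% were called higher in FeSO4 and 9.17% lower, and among the 6169 genes whose mean CPM fell within the range of the tested cytokine genes 6.19% were called higher. With a log2 fold change of at least 1 also required, 1.35% of all tested genes were called higher. Ifng, Il4, Il13 and Il10 were among them, as were Csf2 and Il17a, with the limit given for these 2. At the thresholds named in the study's figure legend (unadjusted p under 0.05 and a log2 fold change of 0.5 or more in size), the same 7 members were higher and none lower, against 4.67% and 5.73% of all tested genes. Both FeSO4 libraries lay above both Mock libraries for 7 of the 8 tested members, against 30.1% of tested genes. They lay below both Mock libraries for 0 of the 8, against 29.4% of tested genes. Il2, which was not tested, lay below. Both counts of 7 include Csf2 and Il17a, with the limit given for these 2. The median log2 fold change over all tested genes was -0.000522.

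**Figure D2:**
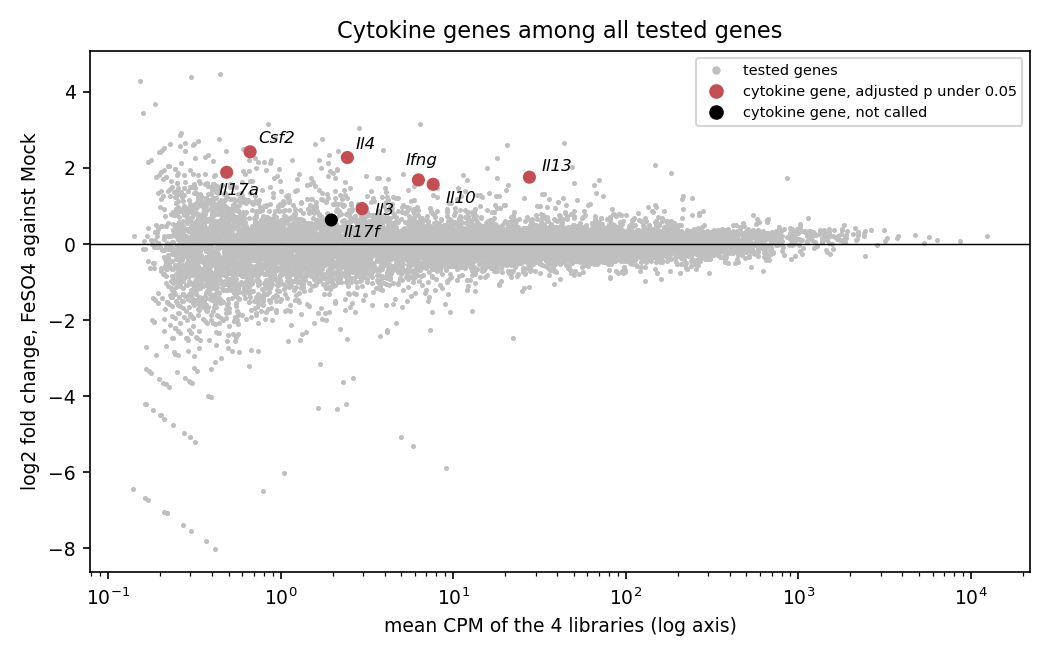
Log2 fold change of FeSO4 against Mock (vertical axis) by mean CPM of the 4 libraries (horizontal log axis) for the 13732 tested genes in grey, with the cytokine genes in color. The 7 called genes, in red, sit above the bulk of genes of like abundance, and Il17f, in black, lies at 0.63.

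Ifng encodes IFN-γ, the macrophage-activating cytokine of type 1 helper cells. It was at 2.61 and 3.32 CPM in Mock replicates 1 and 2 (106 and 139 counts) and at 11.1 and 8.07 CPM in FeSO4 replicates 1 and 2 (382 and 299 counts). Both FeSO4 libraries were well above both Mock libraries. The Mock mean was 2.97 ± 0.503 CPM and the FeSO4 mean 9.61 ± 2.17 CPM (SD, n = 2), and the log2 fold change was 1.69 ± 0.23 (SE; edgeR adjusted p = 6.56e-05), a 3.22-fold difference with a 95% interval of 2.31 to 4.48. The antibody in the medium binds secreted IFN-γ protein, in both groups alike, and these values are of its transcript.

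Il4 and Il13 encode the pair of cytokines that drive IgE switching, mucus production and alternative macrophage activation in type 2 responses. For Il4 the Mock libraries gave 0.64 and 1.03 CPM (26 and 43 counts) and the FeSO4 libraries 3.3 and 4.78 CPM (113 and 177 counts). Every FeSO4 value exceeded every Mock value, and the lower FeSO4 value belonged to replicate 1. The log2 fold change was 2.27 ± 0.35 (SE; edgeR adjusted p = 0.000263), a fitted fold of 4.84 with a 95% interval of 2.88 to 8.12, which placed Il4 at rank 36 of 13732 by log2 fold change. Il13 gave 13.7 and 11.5 CPM in the Mock cultures (555 and 480 counts) against 58.4 and 27 CPM with FeSO4 (2003 and 1000 counts). Its groups did not overlap either, but FeSO4 replicate 1 was far above FeSO4 replicate 2. The log2 fold change of Il13 was 1.76 ± 0.24 (SE; edgeR adjusted p = 7.96e-05), or 3.38-fold with a 95% interval of 2.38 to 4.81. With FeSO4 replicate 1 left out it was 1.11 (edgeR adjusted p = 3.23e-07) and with FeSO4 replicate 2 left out it was 2.22 (edgeR adjusted p = 2.84e-20), so its size, not its direction, rested on which library was used.

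Exons of Kif3a, a kinesin motor subunit gene on the opposite strand, overlap 179 bases of the Il4 exons, or 14.6% of their length. Kif3a rose as well, from 10.8 and 13.8 CPM in Mock to 21.5 and 25.8 CPM in FeSO4, with a log2 fold change of 0.94 ± 0.14 (SE; edgeR adjusted p = 0.000158). The strand setting of the counting is not given in the sources used here, and how many Il4 counts came from Kif3a was not tested. The overlaps of other members, Gm12223 with 96 bases of Csf2 and Gm12534 with 35 bases of Il21, involve genes at 0 counts in every library. Il13, whose exons overlap no other gene in the annotation used, moved by 1.76 on the same log2 scale. Across the members' transcripts the longest stretch shared by any 2 genes was 16 bases.

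Il17a and Il17f encode the neutrophil-recruiting cytokines of type 17 helper cells. Il17a was scarce, at 0.246 and 0.167 CPM in Mock (10 and 7 counts) against 0.642 and 0.891 CPM in FeSO4 (22 and 33 counts). Both FeSO4 values were above both Mock values, at counts where single reads matter. Its log2 fold change was 1.89 ± 0.62 (SE; edgeR adjusted p = 0.0408), 3.7-fold with a 95% interval of 1.49 to 9.16. This call is not independent of the difference, as Il17a passed the filter on low counts only through the FeSO4 libraries. Il17a was no longer called when any 1 of the 4 libraries was left out: the edgeR adjusted p was 0.0834 without Mock replicate 1, 0.168 without Mock replicate 2, 0.142 without FeSO4 replicate 1 and 0.305 without FeSO4 replicate 2. Il17f was at 1.55 CPM in both Mock libraries, at 1.55 CPM in FeSO4 replicate 1 and at 3.21 CPM in FeSO4 replicate 2. Only FeSO4 replicate 2 stood out, and the groups were not separated. The log2 fold change of Il17f was 0.63 ± 0.36 (SE; edgeR adjusted p = 0.247), with a 95% interval of the fold from 0.91 to 2.64, and it was -0.00288 (edgeR adjusted p = 0.998) without FeSO4 replicate 2. Whether Il17a and Il17f differ in their response was not tested.

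Il10 encodes the anti-inflammatory cytokine through which effector regulatory T cells restrain myeloid cells and other T cells. The gene was at 3.01 and 4.71 CPM in Mock (122 and 197 counts) and at 9.83 and 13.1 CPM in FeSO4 (337 and 484 counts). In each group replicate 2 was the higher, and the lower FeSO4 value was still above the higher Mock value. The Mock libraries averaged 3.86 ± 1.2 CPM and the FeSO4 libraries 11.4 ± 2.29 CPM (SD, n = 2), with a log2 fold change of 1.57 ± 0.22 (SE; edgeR adjusted p = 8.53e-05), 2.97-fold with a 95% interval of 2.16 to 4.08. Il10 made up 12.2% and 19.2% of the summed counts of the 10 genes in Mock and 10.9% and 20.9% in FeSO4, so its share ranged alike in both groups while the sum rose.

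Il3 and Csf2 encode growth factors of the myeloid lineages, IL-3 for mast cells, basophils and progenitors and GM-CSF for granulocytes and macrophages. Csf2 had 9 and 8 counts in Mock (0.222 and 0.191 CPM) and 40 counts in each FeSO4 library (1.17 and 1.08 CPM). The libraries within a group nearly coincided, and the groups were far apart. Its log2 fold change of 2.43 ± 0.57 (SE; edgeR adjusted p = 0.00632) was the largest among the 8 tested members in the main fit. Il4 was the larger with Mock replicate 2 left out (2.66 against 2.33) or FeSO4 replicate 1 left out (2.51 against 2.37). Csf2 stayed the larger with Mock replicate 1 or FeSO4 replicate 2 left out, but not with a prior count of 2 (2.18 against 2.21). Csf2 passed the filter on low counts only through the FeSO4 libraries, so its call and rank are not independent of its difference. The log2 fold change of Csf2 in the main fit ranked 30 of 13732, with a fold of 5.37 and a 95% interval of 2.34 to 12.3. Without FeSO4 replicate 1 the value was 2.37 and missed the threshold (edgeR adjusted p = 0.0646). Il3 had 2.17 and 1.91 CPM in Mock (88 and 80 counts) against 3.97 and 3.81 CPM with FeSO4 (136 and 141 counts), again with close libraries and separate groups. The rise of Il3 was the smallest of the called members, with a log2 fold change of 0.93 ± 0.27 (SE; edgeR adjusted p = 0.0213), or 1.9-fold with a 95% interval of 1.29 to 2.82. Il3 missed the threshold when any 1 library was left out, with an edgeR adjusted p of 0.052 without Mock replicate 1, 0.11 without Mock replicate 2, 0.0986 without FeSO4 replicate 1 and 0.0686 without FeSO4 replicate 2, with log2 fold changes of 0.84 to 1.01.

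Il2 encodes the T cell growth factor that was also supplied to every culture as protein. Only 9 and 8 counts of Il2 were found in Mock and 6 and 5 in FeSO4, or 0.222, 0.191, 0.175 and 0.135 CPM. The FeSO4 values were the lower ones by a few reads. Fitted with the filter on low counts lifted, the log2 fold change was -0.41 ± 0.73 (SE; edgeR adjusted p = 0.751). Il21, which encodes the cytokine that follicular helper T cells use to support germinal centers, had 8 and 0 counts in Mock and 1 and 15 counts in FeSO4. In each group 1 library held nearly all of its reads, so the groups overlapped, and without the filter the log2 fold change was 1.19 ± 1.41 (SE; edgeR adjusted p = 0.636). No difference in Il2 or Il21 was detected at these counts, and for Il21 the libraries of each group differed from each other by more than counting error.

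**Figure D3:**
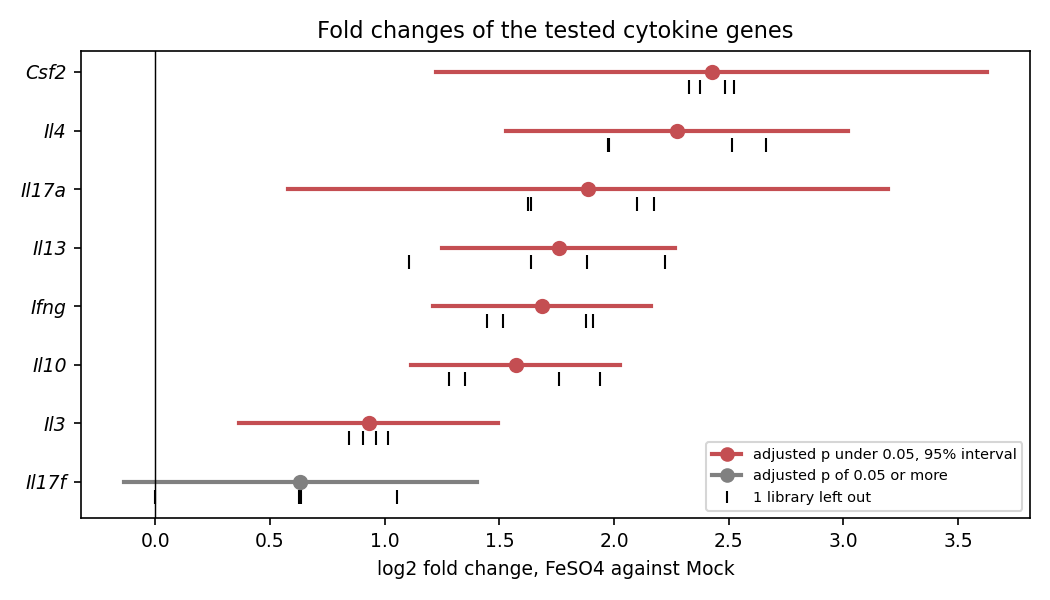
Log2 fold change of FeSO4 against Mock for the 8 tested cytokine genes (points) with 95% intervals (lines), red where the edgeR adjusted p was under 0.05 and grey otherwise; ticks under each line are the values with 1 library left out. Csf2 is at 2.43 and Il3 at 0.93 among the called genes, the ticks of Il13 spread from 1.11 to 2.22, and 1 tick of Il17f falls at 0.

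Within a group the cytokine genes did not move together between libraries. In FeSO4, Ifng and Il13 were higher in replicate 1, by 1.38-fold (95% counting interval 1.18 to 1.61) and 2.16-fold (2.01 to 2.34). Il4, Il10 and Il17f were higher in FeSO4 replicate 2, by 1.45-fold (1.14 to 1.85), 1.33-fold (1.15 to 1.53) and 2.08-fold (1.49 to 2.93). The untested Il21 was higher there too, with 15 counts against 1, by 13.9-fold (2.14 to 584). The ratio of FeSO4 replicate 2 to FeSO4 replicate 1 was 0.96 for Il3 and 0.93 for Csf2, both within counting error. The neighbours Il4 and Il13 thus went opposite ways between the FeSO4 libraries, with 0.0564 Il4 counts per Il13 count in replicate 1 and 0.177 in replicate 2, against 0.0468 and 0.0896 in the Mock libraries. In Mock, only Il13 (a ratio of replicate 2 to replicate 1 of 0.839), Il10 (1.57) and Il21 (8 counts against 0) differed by more than counting error among the 10 genes. Library pairs also differed by more than counting error over all genes, with a chi-square per degree of freedom of 11.3 for Mock and 9.02 for FeSO4. The share of all genes outside their counting interval was not computed, so these differences are not particular to the cytokine genes.

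**Figure D4:**
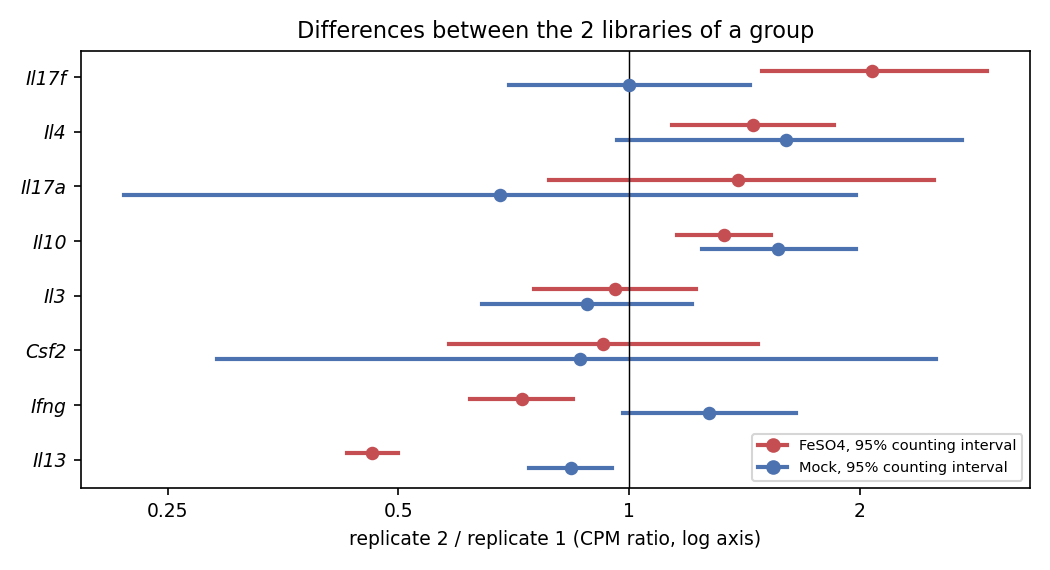
Ratio of CPM in replicate 2 to replicate 1 within FeSO4 (red) and within Mock (blue) for the 8 tested cytokine genes, with 95% intervals that cover counting error only (log axis; the vertical line marks equal levels). In FeSO4, Il17f, Il4 and Il10 lie to the right of the line and Ifng and Il13 to the left, with Il13 at 0.462.

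Levels of different genes were compared per kilobase of exon. In Mock the order ran from Il13 (10.4 CPM per kb) through Il3 (3.24), Il10 (2.94) and Ifng (2.46) to Il17f (1.32), Il4 (0.68), Csf2 (0.258), Il2 (0.18), Il17a (0.177) and Il21 (0.0312). The library ranges of Il3 and Il10, of Il10 and Ifng, and of Il2 and Il17a overlapped, so these neighbours in the Mock order do not differ beyond their spread. In FeSO4 the order was Il13 (35.5 CPM per kb), Il10 (8.74), Ifng (7.96), Il3 (6.18), Il4 (3.29), Il17f (2.03), Csf2 (1.4), Il17a (0.655), Il2 (0.136) and Il21 (0.0687). There the ranges of Il10 and Ifng, of Il4 and Il17f, of Il17f and Csf2, and of Il2 and Il21 overlapped. Il13 headed both orders with no overlap. The range of Il3 lay below those of Il10 and Ifng in FeSO4, whereas in Mock it lay above that of Ifng and overlapped that of Il10.

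Naive CD4 T cells were isolated before culture, per the methods. Markers of other cell types that can make these cytokines summed to at most 11 CPM in any library for each type, against at least 2384 CPM for the CD4 T cell markers, though the CD8 T cell sum was above the level of most of the cytokine genes. The mast cell or basophil markers, which bear on Il4, Il13 and Il3, summed to at most 0.693 CPM, with Mcpt8 and Fcer1a at 0 counts in every library. The markers of group 2 innate lymphoid cells summed to 4.06 and 4.25 CPM without FeSO4 and to 2.95 and 3.48 CPM with it, with Klrg1 at 0. CD8 T cell markers summed to 9.8 and 9.03 CPM without FeSO4 and to 9.95 and 11 CPM with it, and neither of the 2 was called. The NK or NKT cell markers, which bear on Ifng, summed to 1.92 and 2.13 CPM without FeSO4 and to 3.41 and 2.89 CPM with it, with Ncr1 and Klrb1c at 0 in all libraries and 1 of the 3 tested markers, Klrk1, higher (29 and 32 counts against 75 and 83). The part of Klrk1-expressing cells in the Ifng difference was not tested. Myeloid markers summed to 4.58 CPM in Mock replicate 1 and 0.35 to 0.86 CPM in the other libraries, and without Mock replicate 1 the log2 fold changes were 1.28 for Il10, 1.52 for Ifng, 1.88 for Il13, 1.97 for Il4 and 2.52 for Csf2, which kept their calls, while Il17a (2.17) and Il3 (1.01) lost theirs. B cell markers lay between 2.38 and 3.37 CPM and 0 of 2 tested was called. Of the gamma delta T cell markers, only Sox13 was matched, at 0 to 6 counts. Among the 6 CD4 T cell markers, 3 were higher in FeSO4 (Cd3d, Cd3g and Cd28) and none lower. Of the 5 Treg cell markers, 2 were lower (Foxp3 and Ikzf2) and none higher. Over all tested genes, 10.9% were called higher and 9.17% lower.

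Other cytokine and chemokine genes of T cells moved in both directions. Of 31 such genes, 24 were tested, of which 12 were higher in FeSO4 and 3 lower, beside 10.9% and 9.17% of all tested genes, with a median log2 fold change of 0.38. Il9, which encodes a growth factor for mast cells, rose from 29.1 and 20.4 CPM in Mock to 87.4 and 64.3 CPM in FeSO4 (log2 fold change 1.61 ± 0.14, SE; edgeR adjusted p = 8.53e-07). Tnf, the inflammatory cytokine TNF, fell from 110 and 98 CPM to 62 and 52.5 CPM (log2 fold change -0.86 ± 0.09, SE; edgeR adjusted p = 3.79e-06). Osm, which encodes the IL-6 family cytokine oncostatin M, fell as well, from 136 and 143 CPM to 91.5 and 96 CPM (-0.57 ± 0.07, SE; edgeR adjusted p = 2.3e-05). Cd40lg, the ligand by which T cells help B cells, rose from 23.4 and 22.6 CPM to 35.7 and 33.5 CPM (0.59 ± 0.10, SE; edgeR adjusted p = 0.000471). Il5, the type 2 cytokine gene near Il4 and Il13, and Il6 had 0 counts in all 4 libraries. The count of higher genes was 7 without FeSO4 replicate 1, 5 without Mock replicate 2 and 3 with all genes of 1 count or more tested.

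**Figure D5:**
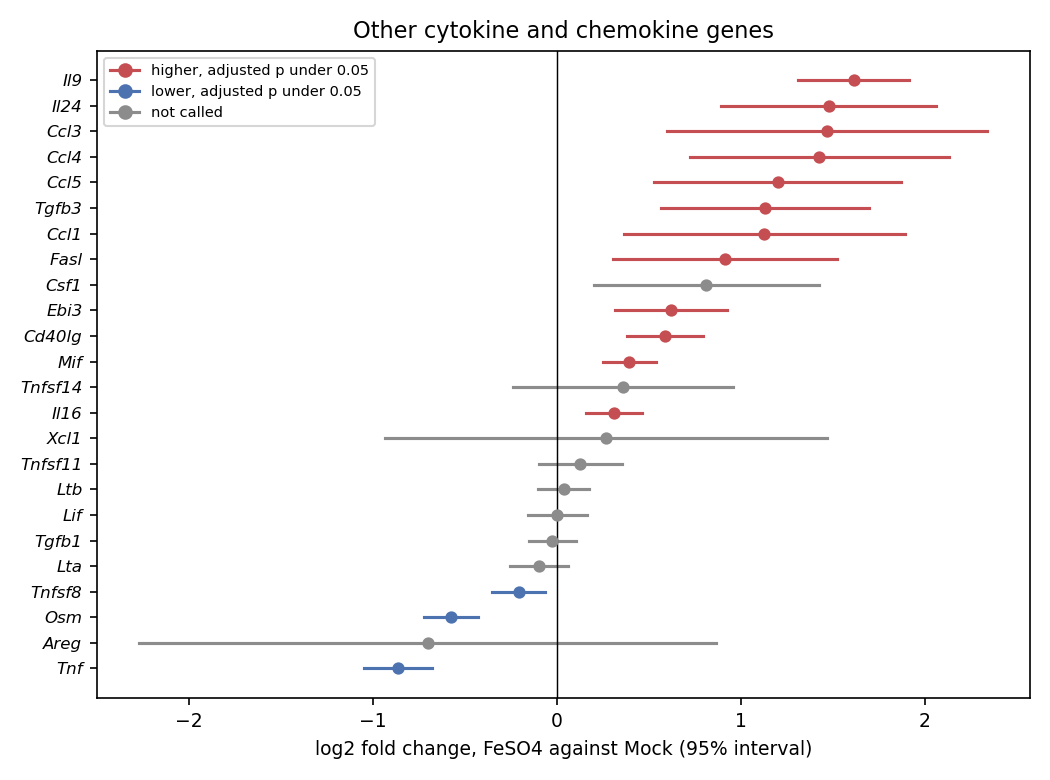
Log2 fold change of FeSO4 against Mock with 95% intervals for the 24 tested genes among the other cytokines and chemokines of T cells, in red where called higher, blue where called lower and grey otherwise. Il9 is at the top, at 1.61, and Tnf at the bottom, at -0.86.

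Receptor subunits for the 10 cytokines were lower in FeSO4 or missed the threshold. Of 16 receptor genes, 13 were tested, none was higher and 4 were lower, beside 10.9% and 9.17% of all tested genes. Among the 12 with at least 10 counts in every library, 3 were lower, beside 10.3% of all such genes. At the study's thresholds 1 was lower, Csf2rb, and with all genes of 1 count or more tested none was. Il17ra, the shared receptor chain for IL-17A and IL-17F, fell from 231 and 223 CPM to 185 and 193 CPM (log2 fold change -0.26 ± 0.06, SE; edgeR adjusted p = 0.00733). Il2rb, the IL-2 receptor β chain, fell from 742 and 803 CPM to 653 and 665 CPM (-0.23 ± 0.06, SE; edgeR adjusted p = 0.0136). Il10ra, the ligand-binding chain for IL-10, fell from 97.5 and 96.2 CPM to 78.3 and 87.1 CPM (-0.23 ± 0.07, SE; edgeR adjusted p = 0.0404). Csf2rb, the signaling chain for GM-CSF and IL-3, had 12 and 14 counts in Mock and 0 and 1 in FeSO4, a ratio of 0.0445 with a counting interval of 0.00108 to 0.271. It passed the filter on low counts only through the Mock libraries, where it is higher, so its call (edgeR adjusted p = 0.0306) is not independent of its difference. With FeSO4 replicate 1 left out no receptor gene was lower, with FeSO4 replicate 2 or Mock replicate 2 left out 2 were, and with Mock replicate 1 left out 3 were lower and 1 was higher.

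Genes of JAK, STAT and SOCS signaling, the route by which the receptors of these cytokines other than IL-17A and IL-17F act, were called in both directions, 3 higher and 3 lower of 14 tested, beside 10.9% and 9.17% of all tested genes, with a median log2 fold change of -0.04. Scaled by library size only, 1 was higher and 4 lower, and at the study's thresholds 1 was higher and none lower, and with all genes of 1 count or more tested 1 was higher and 1 lower. Stat5a and Stat5b, the transducers of IL-2 signals, fell by 0.45 and 0.24 on the log2 scale (edgeR adjusted p = 0.000167 and 0.0121). Jak3, the kinase of the common γ chain, rose by 0.23 ± 0.06 on that scale (SE; edgeR adjusted p = 0.0158), and its adjusted p was 0.074 when scaled by library size only. Without FeSO4 replicate 1 or without Mock replicate 2 only 1 gene of the list was lower, and without FeSO4 replicate 2 only 1 was higher.

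Of 20 transcription factor genes known to act on the cytokine genes, 19 were tested, 6 were higher and 6 lower, beside 10.9% and 9.17% of all tested genes, with a median log2 fold change of -0.11. Irf4, a factor that T cell receptor signals induce, rose from 113 and 124 CPM to 174 and 179 CPM (log2 fold change 0.57 ± 0.07, SE; edgeR adjusted p = 2.3e-05). Its partner Batf rose from 25.6 and 27.2 CPM to 42 and 44.5 CPM (0.71 ± 0.09, SE; edgeR adjusted p = 4.97e-05). Maf, which encodes c-Maf, an activator of Il4, Il10 and Il21, rose from 66.9 and 71 CPM to 98.1 and 98.2 CPM (0.51 ± 0.07, SE; edgeR adjusted p = 0.000112). Foxp3, which represses several helper cytokine genes, had a log2 fold change of -0.59 ± 0.09 (SE; edgeR adjusted p = 0.000223). The other called members were Tbx21, Prdm1 and Ahr, which were higher, and Nfatc2, Ikzf3, Gata3, Nfatc1 and Junb, which were lower. The number of lower factors was 3 without FeSO4 replicate 1, 2 at the study's thresholds and 1 with all genes of 1 count or more tested.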

How the data were processed

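RNA was sequenced from 2 Mock and 2 FeSO4 cultures of iTreg cells. The authors deposited unnormalized counts of reads for each Ensembl gene ID, and no column of another sample was present. The submitters' processing notes name Trim Galore 0.6.7, STAR 2.7.9a, featureCounts and mm10, whereas the methods name STAR, mm9 and DESeq, and the 5 closing rows of unassigned reads, left out here, are named as another counter writes them, so the counter and build are uncertain. Symbols were matched by Ensembl ID for 32799 of 47729 rows, and the unmatched rows held 0.755% of counts. Reads with more than 1 alignment (4.27 to 4.62% of a library) and ambiguous reads (3.78 to 3.91%) were not counted, which lowers genes with copies or overlapping exons. Exon lengths came from GENCODE M1.

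Counts were fitted in R 4.3.3 with edgeR 4.0.16 (TMM scaling, filterByExpr by group, bias-adjusted quasi-likelihood F test, group as the only term, prior count 0.125), on all genes, with Benjamini-Hochberg adjustment over 13732 genes. The fit was tested on simulated data. DESeq2 1.42.0 and limma 3.58.1 served as alternatives. Library pairs were compared by chi-square over genes, which was 11.3 per degree of freedom for Mock and 9.02 for FeSO4, so no library was counted as a duplicate. Intervals between single libraries are exact 95% intervals, and with no molecular identifiers named they and the limit of 3 counts cover counting error only. The members, the gene lists and the markers were chosen with earlier results of these data known. Of each further list, up to 4 genes of smallest p among those with an adjusted p under 0.05 were named, and those at 0 counts in all libraries. A gene that this rule names is not reported here. Tbx21, Prdm1, Ahr, Nfatc2, Ikzf3, Gata3, Nfatc1 and Junb, as well as Kif3a, were added in the text after their values were seen. The called CD4 T cell and Treg cell markers were likewise named after their values were seen.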

Additional observations from a re-analysis of the deposited data

How the results depend on the processing

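Ifng, Il4 and Il10 kept their call (adjusted p under 0.05, higher with FeSO4) under all 15 alternatives run for each, with log2 fold changes of 1.45 to 1.91, 1.97 to 2.66 and 1.28 to 1.94. Il13 lost its call only when all genes with at least 1 count were tested (adjusted p = 0.064), and Csf2 lost its call there and without FeSO4 replicate 1. Il3 lost it under 5 alternatives, all genes with at least 1 count and each library left out, and Il17a under 7, these 5, the DESeq2 Wald test and limma-voom (adjusted p up to 0.305). Il17f ranged from -0.00288 without FeSO4 replicate 2 to 1.05 without FeSO4 replicate 1 and was not called under any alternative. With the filter lifted in this way, 3 cytokine genes were higher, and over all genes 524 higher and 304 lower; the cause was not tested. With library size only, 986 genes were higher and 1809 lower, and higher genes made up 35.3% of calls against 54.2%, while 7 cytokine genes were still higher. At the study's thresholds 641 were higher and 787 lower. With 1 library left out, 4 to 5 cytokine genes were higher, and over all genes 893 to 1199 were higher and 710 to 1158 lower. The labels do not say that the replicate numbers mark a shared experiment, and the deviations of same-numbered libraries correlated at 0.0293. Fitted with the replicate block, 7 cytokine genes were higher and 0 lower, with 1846 and 1579 over all genes. The block gave 1 receptor gene higher and 5 lower. With at least 10 counts required in every library, 5 of 6 cytokine genes were higher. The legacy quasi-likelihood test, chosen after seeing the data, gave 7 cytokine genes. Over the 37 other genes of the lists, 553 alternatives gave the same call in 460, lost it in 93 and turned no direction. No cytokine gene was lower under any alternative. With 2 libraries a group, a library left out leaves 1 sample in its group, which is then assumed to vary like the other group. Il2 and Il21 held at most 9 and 15 counts in a library.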
